A study of Anolis carolinensis with 2 samples.

Results

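The small linkage groups other than LGb in the genome assembly of a lizard, the green anole Anolis carolinensis, held 216 of the 21085 genes listed in each library. They were taken by chromosome name: all genes on LGa, LGc, LGd, LGf, LGg and LGh, with 36, 70, 4, 101, 2 and 3 genes. The study sequenced total RNA of 1 whole embryo with 38 somite pairs and 1 whole embryo with 28 somite pairs. Both were collected 0 to 1 days after the egg was laid, and the labels give neither treatment, strain nor sex. Each stage was 1 library of 1 embryo, so no value has a replicate error, no p-value was computed, and embryo, library and stage cannot be told apart. In whole embryos, fewer cells that use a gene and less RNA per cell cannot be told apart either.

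Lizards and birds carry a few large chromosomes, the macrochromosomes, and many small ones, the microchromosomes. Microchromosomes are known, mainly from birds, for dense genes and short introns. In the anole assembly the numbered chromosomes are the macrochromosomes, and the lettered linkage groups are the parts of microchromosomes that could be placed. LGb belongs to the X chromosome and is not among the groups described here, but some of its values are given for comparison. Somites are paired mesodermal blocks that bud off one after another beside the neural tube, and their number stages an embryo.

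The linkage groups were small in the files, but their extents measure only the placed parts and not whole chromosomes. From the first gene's start to the last gene's end, LGc covered 9.09 Mb, LGa 6.79 Mb, LGf 4.22 Mb, LGd 1.06 Mb, LGg 0.298 Mb and LGh 0.186 Mb, which makes 21.7 Mb in all. The shortest of chromosomes 1 to 6 covered 80.7 Mb, and together they covered 1055 Mb with 10490 genes. The identifiers matched no gene name (0 of 21085), so genes are given by position on the assembly AnoCar2.0, counted from 1, and neither their functions nor markers of the embryo's tissues could be described.

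The libraries held 12908649 mapped fragments at 38 somite pairs and 13859432 at 28, as recovered from the deposited FPKM (fragments mapped to a transcript, divided by its length and by the library's mapped fragments). The listed transcripts held 43.4% of these at 38 and 52.1% at 28, and the sum of all FPKM at 28 was 1.10 times that at 38. A factor common to a whole library largely drops out of values taken relative to chromosomes 1 to 6. The linkage groups held 27826 fragments at 38 (0.216% of those mapped) and 39554 at 28 (0.285%). Of 198 values above 0 among the 216 genes, only 1 stood for fewer than 10 fragments, so a listed 0 can stand for a few fragments and does not show that a gene was silent.

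Gene models on the linkage groups were detected less often than models of the same transcript length on chromosomes 1 to 6. An FPKM of 1 or more, the level called detected here, was reached by 79 of 216 models at 38 somite pairs (36.6%) and by 82 at 28 (38.0%). Chromosomes 1 to 6 had 55.9% at 38 and 54.7% at 28, and all 21085 listed genes had 47.1% and 46.7%. When chromosomes 1 to 6 were weighted to the members' transcript lengths in 6 classes, the shares were 58.5% at 38 and 57.3% at 28. Of the members, 72 were detected in both libraries, 7 only at 38, 10 only at 28 and 127 in neither, and 104 were listed at 0 in both. Of all 21085 listed genes, 9005 were detected in both, 933 only at 38, 845 only at 28 and 10302 in neither, and 8856 were at 0 in both.

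The groups differed in this respect. On LGf, 29 of 101 models were detected at 38 (28.7%) and 35 at 28 (34.7%), where the length-weighted shares of chromosomes 1 to 6 were 62.2% and 60.9%. On LGa, 9 of 36 models were detected at 38 (25%) and 7 at 28 (19.4%), against 45.9% and 44.9%. LGc was nearer to chromosomes 1 to 6, with 35 of 70 models detected at each stage (50%), against 60.6% at 38 and 59.4% at 28. Its share was above that of all listed genes, 47.1% at 38 and 46.7% at 28, which is not weighted by length. LGb had 62.9% at 38 and 69.4% at 28, against length-weighted shares of 64.0% and 62.8%. Of the 9 models on LGd, LGg and LGh together, 6 were detected in at least 1 library.

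**Figure D1:**
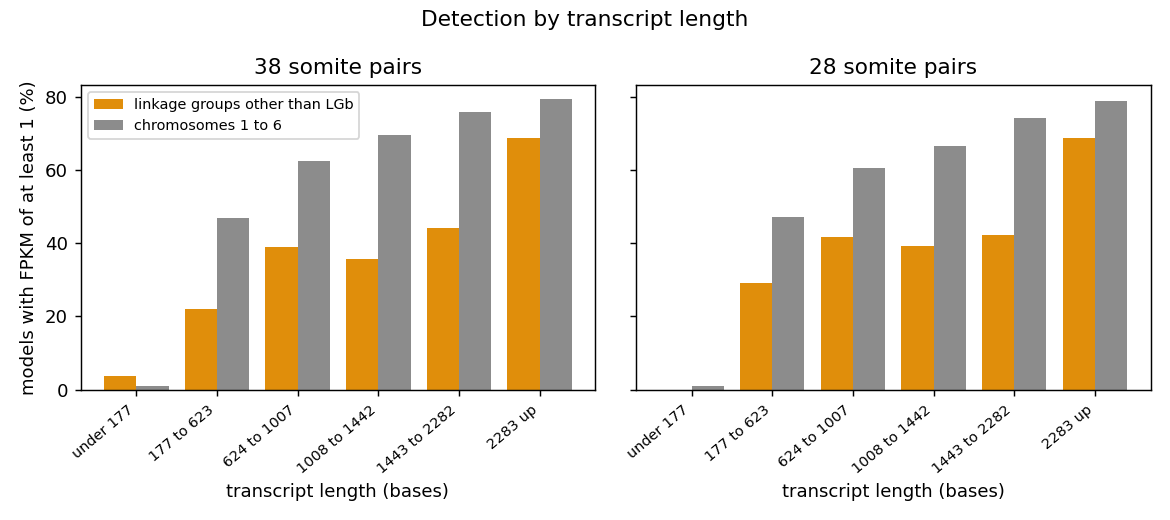
The share of gene models with an FPKM of 1 or more is plotted against transcript length in 6 classes, for the linkage groups other than LGb (orange) and chromosomes 1 to 6 (grey), at 38 somite pairs (left) and 28 (right). From 177 bases upward every orange bar is below its grey neighbour, for example 44.2% against 76.0% from 1443 to below 2283 bases at 38 somite pairs.

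The gap was present in each of the 5 length classes from 177 bases upward. Below 177 bases few models were detected anywhere: 1 of 27 on the linkage groups at 38 (3.70%) and 0 at 28, against 1.14% and 1.03% on chromosomes 1 to 6. From 624 to below 1008 bases, 38.9% of 36 models on the linkage groups were detected at 38 and 41.7% at 28, against 62.4% and 60.5% on chromosomes 1 to 6. Among those 5 classes it was smallest at 2283 bases or more, where 68.8% of 32 models were detected at both stages, against 79.3% at 38 and 78.9% at 28. Since values from fewer than 10 fragments were rarely listed above 0, short models needed a higher FPKM to be listed. Whether this or another cause lowered their detection was not tested. With 10 fragments, a transcript reached an FPKM of 1 only if its effective length was below 775 bases at 38 and 722 at 28. Of the 118 members listed at 0 at 38, 71 were shorter than that, and of the 116 at 28, 67 were. Among all 216 members, 92 were shorter at 38 and 90 at 28.

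The kind of gene model was related to detection. None of the 25 models under 150 bases had an FPKM of 1 or more in either library, and on chromosomes 1 to 6 only 15 of 1683 had. Such small models made up 30.6% of LGa, 11.4% of LGc and 3.96% of LGf, against 16.0% of chromosomes 1 to 6. Intronless models of 150 bases or more reached an FPKM of 1 in at least 1 library in 5 of 20 cases (25%), against 47.3% on chromosomes 1 to 6. Spliced models did so in 84 of 172 cases (48.8%), against 73.3%. Within spliced models of 500 bases or more, the share was 32 of 72 on LGf (44.4%), 8 of 19 on LGa (42.1%) and 32 of 50 on LGc (64.0%). On chromosomes 1 to 6 it was 76.0%, and over all listed genes 63.9%.

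Detection varied along the groups. On LGc, the 4 models in the second megabase and the 5 in the fifth were all listed at 0 in both libraries, whereas all 5 in the first megabase were detected at both stages. Median model length was 119 bases in the second megabase and 315 in the fifth, against 3318 in the first. Position and model length therefore cannot be told apart here. Of the LGc models listed at 0, 7 were intronless models of 118 to 120 bases between positions 1340357 and 5134882. On LGf, 17 of the 22 models that start in the first megabase were at 0 in both libraries, against 6 of the 19 in the second. Their median lengths were 600 and 1068 bases. LGa held no model between 4 and 6 Mb, and its longest stretch without a gene was 3392 kb, before its last gene.

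LGf also held sets of spliced models of like length. Most of them were at 0 in both libraries, as were 54 of all 101 LGf models. A set of 4 models of exactly 447 bases lay between positions 302373 and 689106, with other models between them. Each was spread over 3704 to 5500 bases of genome, and all were listed at 0 in both libraries. Chromosomes 1 to 6 held 9 models of this length. Between 2899785 and 3158652, 8 neighbouring models of 1465 to 1521 bases followed each other. Of these, 3 had a value above 0 at 38 and 1 at 28, the highest being 1.89 FPKM at 38 and 3.66 at 28, and 5 were at 0 in both. Whether these models are near-identical copies was not tested. If they are, reads could be split among them, so single values in such sets are uncertain.

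**Figure D2:**
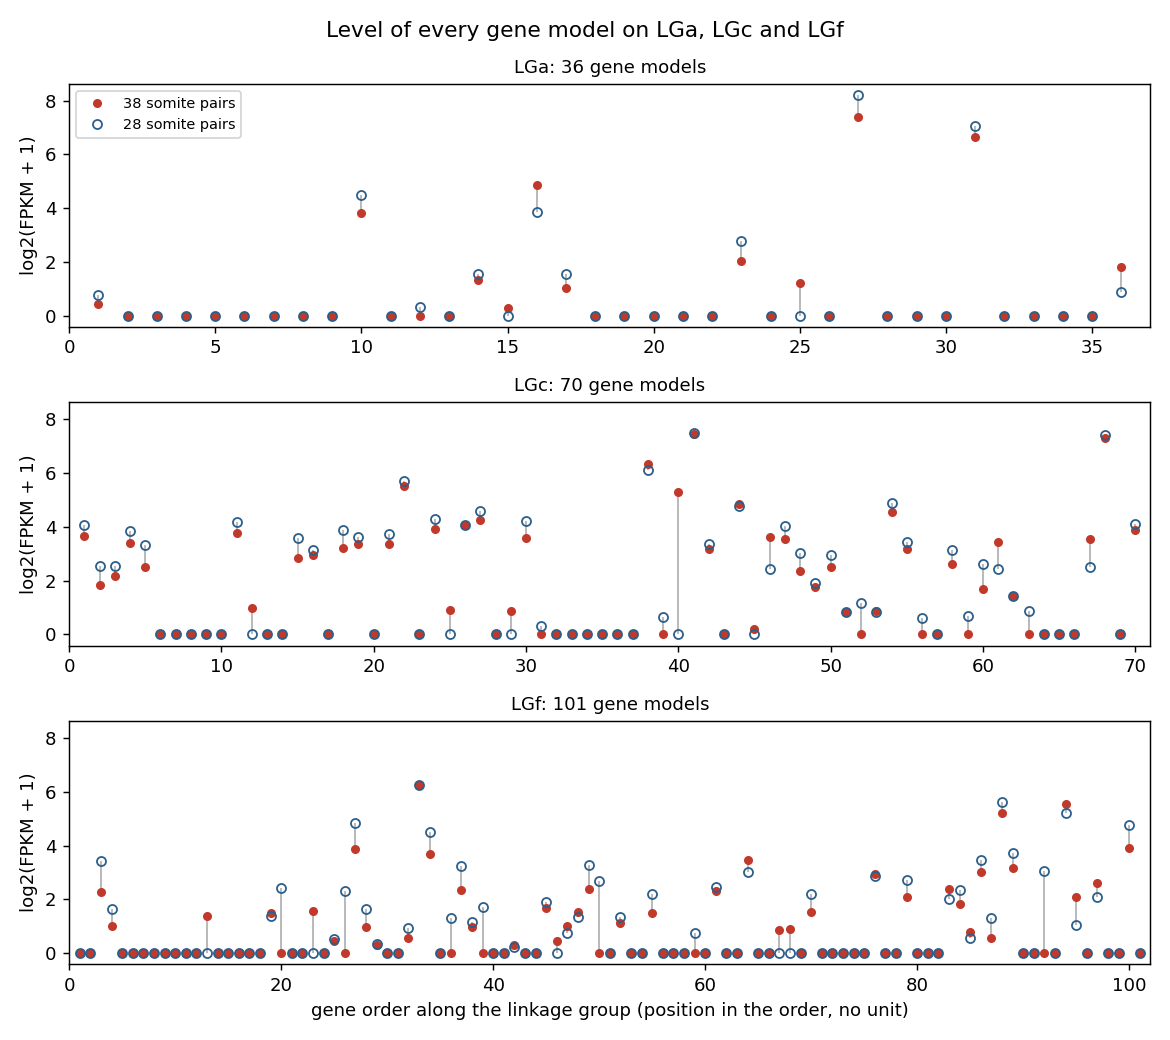
The level of every gene model on LGa (36 models), LGc (70) and LGf (101) is plotted in gene order, as log2(FPKM + 1), at 38 somite pairs (red) and 28 (blue rings), with grey lines joining the values of a model. Stretches of models at 0 in both libraries alternate with expressed models, and most expressed models have the ring, 28 somite pairs, above the red point.

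Among LGa, LGc and LGf, median levels of the expressed genes were highest on LGc and lowest on LGf. Genes with an FPKM of 1 or more in at least 1 library, called expressed here, numbered 89 on the linkage groups, against 6262 on chromosomes 1 to 6. Their median was 5.07 FPKM at 38 (quartiles 1.89 and 12.7) and 6.67 at 28 (2.74 and 16.0), against 8.07 and 9.11 FPKM on chromosomes 1 to 6. The 36 expressed LGc genes had a median of 9.76 FPKM at 38 and 11.1 at 28. The 38 expressed LGf genes had medians of 2.37 FPKM at 38 and 4.0 at 28, and the 9 on LGa had 3.06 at 38 and 5.86 at 28. The LGc median was thus above that of chromosomes 1 to 6 at both stages and the LGf median below it. Quartiles on LGc were 5.03 and 14.6 FPKM at 38, and 5.05 and 17.3 at 28. On chromosomes 1 to 6 they were 2.75 and 23.5 at 38, and 2.89 and 27.4 at 28. The upper quartile of LGc was thus lower than that of chromosomes 1 to 6.

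Matching on transcript length left that order in place. Each gene's log2(FPKM + 1) was set against the median of expressed genes on chromosomes 1 to 6 in its length class. The median departure was 0.33 at 38 and 0.25 at 28 on LGc, where 22 and 20 of 36 genes lay above their class. On LGf it was -1.33 at 38 and -1.09 at 28, with 8 and 12 of 38 genes above. On LGa it was -0.90 and -0.23 over 9 genes. LGb had -0.71 at 38 and -0.36 at 28 over 44 genes, and all expressed genes had -0.18 and -0.16. A lower matched level was thus not particular to the groups described here. Over the 89 genes of these groups the departure was -0.53 at 38 and -0.46 at 28, and without LGf it was 0.26 and 0.06. Among expressed genes its sign thus rests on LGf. With no filter on low values it was 0 at both stages over all 216 models, 104 of which were listed at 0 in both libraries. Models at 0 in a class whose median is also 0 then count as no departure, so the unfiltered value cannot show a direction.

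Fragments were concentrated in few genes. The 5 richest genes held 48.6% of the linkage groups' fragments at 38 and 49.6% at 28. On LGa 1 spliced gene (3019773 to 3025106, transcript of 1941 bases) had 168 FPKM at 38 (4505 fragments) and 298 at 28 (8532 fragments). It held 70.2% of LGa's fragments at 38 and 75.6% at 28. It ranked 369th of all listed genes at 38 and 213th at 28. Its locus encloses 3 models under 150 bases, each listed at 0 in both libraries. A neighbour (3035153 to 3039982) had 101 FPKM at 38 and 131 at 28.

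On LGc the most abundant gene (5667717 to 5677752) had 174 FPKM at 38 and 178 at 28. The gene with the most fragments there (8456500 to 8508931) had 157 FPKM at 38 (4632 fragments) and 171 at 28 (5396 fragments). These FPKM were close between the embryos. Fragments per mapped fragment, 38 over 28, had ratios of 0.978 (95% counting interval 0.918 to 1.04) and 0.922 (0.886 to 0.959). Both intervals lie above the 0.840 of chromosomes 1 to 6. The most abundant LGf gene (1745073 to 1758123) had 76.2 FPKM at 38 and 74.8 at 28. An intronless LGd model of 345 bases (1076898 to 1077242) had 95.2 and 121 FPKM. Levels of 100 FPKM or more were reached by 4 of the 89 expressed genes at 38 (4.49%) and 5 at 28 (5.62%), against 6.05% and 6.66% on chromosomes 1 to 6.

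Genomic span at like transcript length was shorter on LGf than on LGc and LGa. The median span of its 101 models was 6738 bases, against 14679 on LGc, 5082 on LGa and 10589.5 on chromosomes 1 to 6. Among spliced models the medians were 9026 bases on LGf (89 models), 23558.5 on LGc (54), 13468 on LGa (22) and 17461 on chromosomes 1 to 6. Set against chromosomes 1 to 6 in the same length class, the median LGf span was 0.60 times as long, and 28 of 101 models were longer than their class median. On LGc and LGa this ratio was 1.00, with 33 of 70 and 18 of 36 models above their class median. The length-matched ratios include intronless models, whose span equals their length. Such models made up 38.9% of LGa, 22.9% of LGc and 11.9% of LGf, against 23.9% of chromosomes 1 to 6. A matched ratio for spliced models alone was not computed. Exons took a median of 12.4% of the span of spliced LGf models, against 7.18% on LGc, 6.98% on LGa and 7.76% on chromosomes 1 to 6. LGb came near LGf, with a median span of 10440 bases over 57 spliced models, of which exons took 11.8%. The length-matched ratio on LGb was 0.87. Compact spliced models were thus not particular to LGf.

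Gene density went the same way. LGf had 23.9 models per Mb, LGc 7.70 and LGa 5.30, against 9.94 on chromosomes 1 to 6, where single chromosomes ranged from 8.06 to 12.4. All linkage groups other than LGb together had 9.98 models per Mb, near the value of chromosomes 1 to 6. The 6.79 Mb of LGa include the 3392 kb without a gene before its last gene, which lowers its densities and the pooled ones. Expressed genes numbered 9.01 per Mb on LGf, 3.96 on LGc and 1.32 on LGa, against 5.94 on chromosomes 1 to 6. The pooled value was 4.11. LGb was dense too, with 19.0 models and 13.5 expressed genes per Mb. LGf thus held more expressed genes per Mb than chromosomes 1 to 6 although a smaller share of its models was detected. The median gap between neighbouring models was 21.2 kb on LGf, 26.2 kb on LGc and 32.8 kb on LGa, against 30.5 kb. The longest models were on LGa (216180 bases) and LGc (177426), against 73359 on LGf.

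**Figure D3:**
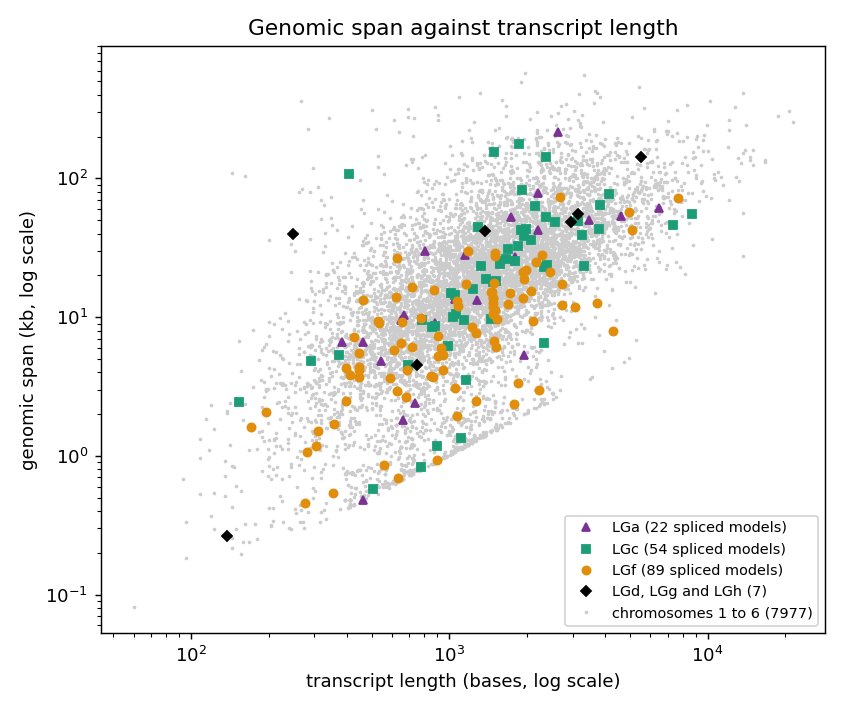
Genomic span in kb is plotted against transcript length in bases, both on log scales, for spliced models of LGa, LGc, LGf, LGd with LGg and LGh, and chromosomes 1 to 6 (grey). Most of the 89 LGf models (orange) lie in the lower part of the grey cloud at their length, while LGc (green) lies across it.

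Levels were lower at 38 than at 28 somite pairs for most expressed genes of the linkage groups, by slightly more than on chromosomes 1 to 6. The log2(FPKM + 1) difference, 38 minus 28, had a median of -0.37 over the 89 genes (quartiles -0.69 and 0.03), with 64 below 0 (71.9%) and 25 above. On chromosomes 1 to 6 the median was -0.16 (quartiles -0.52 and 0.24), with 61.4% of genes below 0. The difference was then taken relative to the median of chromosomes 1 to 6 in the same class of transcript length (6 classes) and mean expression (5 classes). Its median was -0.19 (quartiles -0.54 and 0.10), with 58 of 89 genes below their class (65.2%, against 49.8% on chromosomes 1 to 6). Matching to the class medians of chromosomes 1 to 6 fixes their own share near that value. Over all expressed genes, 62.4% were below 0 and 52.5% below their class. On LGb the matched median was -0.36, with 36 of 44 expressed genes below their class, so the shift was not particular to the groups described here. Medians of the single chromosomes 1 to 6 lay between -0.06 and 0.05, each over 619 to 1428 genes. Quartiles of single genes there were -0.36 and 0.36.

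The shift differed among the groups in size, and the difference between groups was not tested. On LGf the matched median was -0.41 over 38 genes, with 26 below their class. Restricting to FPKM of 1 or more in both libraries left 26 LGf genes, with a median of -0.18. With an FPKM of 5 or more in at least 1 library, the median was -0.44 over 17 LGf genes. The size of the LGf value thus depended on the filter. With at least 100 fragments in both libraries, the median was -0.19 over 8 LGf genes. On LGc the matched median was -0.11 over 36 genes, and -0.02 over the 23 with at least 100 fragments in both. On LGa it was -0.34 over 9 genes, 6 of them below their class, and -0.31 over the 4 with at least 100 fragments in both. LGg had both genes below their class and LGh both above.

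**Figure D4:**
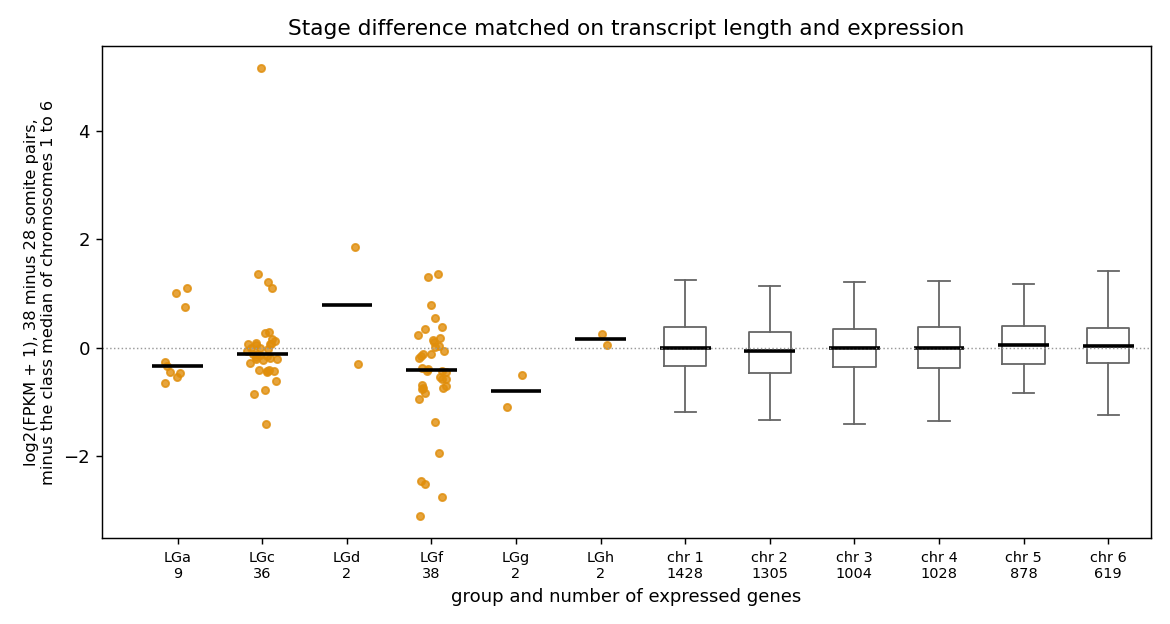
Each orange point is an expressed gene of a linkage group, placed at its log2(FPKM + 1) difference, 38 minus 28 somite pairs, less the class median of chromosomes 1 to 6; boxes show quartiles and whiskers the 5th and 95th percentiles on chromosomes 1 to 6, and thick lines are medians. The medians are -0.34 on LGa, -0.11 on LGc and -0.41 on LGf, and from -0.06 to 0.05 on chromosomes 1 to 6.

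Summed fragments gave a view that weights abundant genes. The ratio of fragments per mapped fragment, 38 over 28, was 0.755 on the linkage groups (exact 95% counting interval 0.744 to 0.767) and 0.840 on chromosomes 1 to 6 (0.839 to 0.841). The linkage groups' ratio was therefore 0.90 times that of chromosomes 1 to 6 (0.886 to 0.913). These intervals are Clopper-Pearson and cover counting error only. Without the abundant LGa gene at 3019773 the relative ratio was 0.96 (0.945 to 0.977). By group it was 0.73 on LGa (0.705 to 0.750), and 0.89 without that gene (0.838 to 0.943). It was 0.87 on LGf (0.843 to 0.904), and 0.86 without the LGf gene with the most fragments (0.829 to 0.896). On LGc it was 1.02 (0.996 to 1.04), an interval that holds 1.

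**Figure D5:**
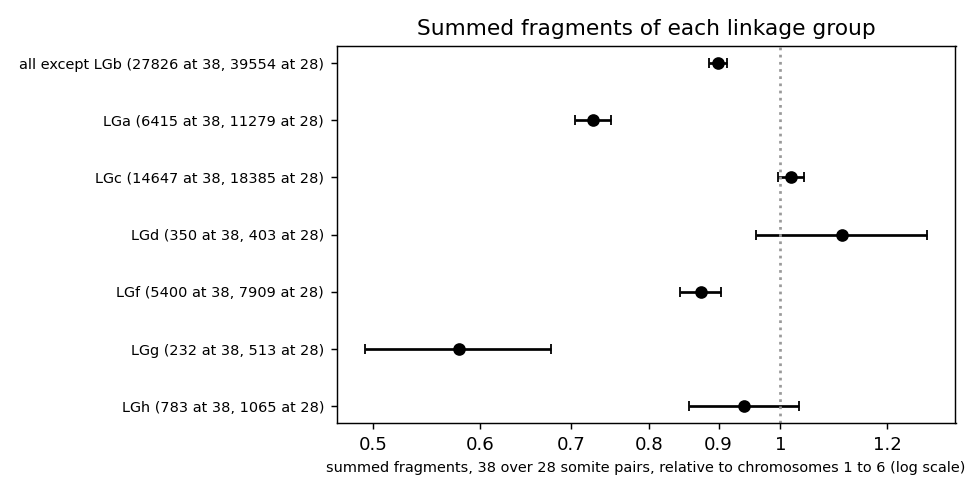
Points are the ratios of summed fragments, 38 over 28 somite pairs, of each linkage group relative to chromosomes 1 to 6, on a log scale, with exact 95% counting intervals as bars and the summed fragments at 38 and 28 in the row names. The intervals of LGa, LGf and LGg lie below 1 and those of LGc, LGd and LGh hold 1.

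Counting error could be judged gene by gene for 53 genes, those that had 100 fragments or more in one of the libraries and no fewer than 10 in the other. Their interval lay wholly below the ratio of chromosomes 1 to 6 in 23 genes, wholly above it in 9, and held it in 21. As shares these are 43.4% below and 17.0% above, where of all 6183 genes so covered 33.2% lay below and 32.9% above. On LGf 8 of 14 were below and 2 above, on LGc 10 of 30 below and 6 above, and on LGa 4 of 6 below and 1 above. The 2-fold counts use the ratio per mapped fragment, not taken relative to the 0.840 of chromosomes 1 to 6. By it 4 of the 53 were 2-fold or more higher at 38 (7.55%, against 2.56% of all genes so covered), and 4 were 2-fold or more higher at 28 (7.55%, against 7.39%).

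Folds and ratios of single genes are given per mapped fragment, where chromosomes 1 to 6 had a ratio of 0.840. The largest fold towards 38 among these 53 genes was on LGc. ENSACAG00000009055 (5809537 to 5835833) had 11.3 FPKM at 38 (221 fragments) and 4.43 at 28 (93 fragments), 2.55-fold higher at 38 (1.99 to 3.29). ENSACAG00000014921 (7138887 to 7293011), which spans 154 kb, had 10.8 FPKM at 38 and 4.77 at 28, 2.25-fold higher (1.73 to 2.94). Another LGc gene (6791692 to 6797841) had 9.82 FPKM at 38 and 4.42 at 28, which is 2.22-fold higher (1.61 to 3.08). All 3 intervals lie above 1, while most expressed LGc genes were lower at 38. On LGa, a gene at 2222395 to 2231450 had 28.5 FPKM at 38 and 13.6 at 28, 2.10-fold higher (1.69 to 2.63). The next folds were smaller. An LGf gene (3933928 to 3960827) had 45.3 FPKM at 38 and 36.3 at 28, a ratio of 1.26 (1.07 to 1.49). An LGc gene of 291 bases (5524878 to 5529671) had 79.9 and 67.6 FPKM, a ratio of 1.18. Its interval held 1 (0.954 to 1.47) and lay above the 0.840 of chromosomes 1 to 6.

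Towards 28, the largest fold was at ENSACAG00000004462 on LGf (67565 to 77190), with 3.88 FPKM at 38 (77 fragments) and 9.67 at 28 (204 fragments), a ratio of 0.405 (0.308 to 0.529). ENSACAG00000010119 on LGc (6753811 to 6789633) had 2.20 FPKM at 38 and 5.13 at 28, a ratio of 0.432 (0.313 to 0.590). It adjoins the LGc gene at 6791692 that was 2.22-fold higher at 38. On LGf, genes at 2296225 and 1127269 had ratios of 0.479 (0.365 to 0.624) and 0.503 (0.445 to 0.568). The better covered of these, at 1127269, had 13.8 FPKM at 38 (386 fragments) and 27.8 at 28 (824 fragments). A further LGf gene (2553002 to 2595664) had 1.82 and 3.64 FPKM, a ratio of 0.507 (0.411 to 0.624). The abundant LGa gene at 3019773 had a ratio of 0.567 (0.547 to 0.588), the narrowest interval of the genes named here. The ratios in this paragraph are per mapped fragment, and their intervals all lie below the 0.840 of chromosomes 1 to 6.

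By log2(FPKM + 1), a difference of 1 or more (2-fold) in favour of 38 was found in 8.58% of all expressed genes, and in favour of 28 in 9.20%. On the linkage groups 9 of 89 were higher at 38 (10.1%) and 8 at 28 (8.99%), near that background. By group, LGf had 7 of its 38 expressed genes 2-fold higher at 28 (18.4%) and 3 higher at 38 (7.89%). Of those 7, 6 were listed at 0 at 38. Among all members, 4 of the 9 higher at 38 and 7 of the 8 higher at 28 rested on a 0 in the other library. No fold is given for these.

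Genes listed above 0 in 1 library only had few fragments. There were 12 at 38, with 10 to 21 fragments, and 14 at 28, with 2 to 44. How often this occurred over all listed genes was not computed. The only such members with 30 or more fragments lay on LGf and were listed at 0 at 38. The first (3811791 to 3821191, transcript of 528 bases) had 7.26 FPKM at 28 from 44 fragments. The second (1089173 to 1093339, 687 bases) had 3.92 FPKM at 28 from 30 fragments. At 38, the highest FPKM among such genes was 38.5, at an LGc model of 153 bases (5660948 to 5663403). This rested on 18 fragments in a very short transcript, and the model was listed at 0 at 28.

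The 3 smallest groups are given gene by gene. On LGd, a spliced gene (12980 to 17529) had 7.92 FPKM at 38 (65 fragments) and 1.69 at 28 (15 fragments), a ratio of 4.65 (2.62 to 8.78). The intronless LGd model of 345 bases was lower at 38, at 0.789 (0.674 to 0.921), but this interval holds the 0.840 of chromosomes 1 to 6. The other 2 LGd models, of 125 and 138 bases, were at 0 in both libraries. On LGg, the gene at 41249 to 183688 had 2.36 FPKM at 38 and 4.8 at 28, a ratio of 0.499 (0.422 to 0.589). Its neighbour (296946 to 338860) had 1.13 and 3.05 FPKM, a ratio of 0.377 (0.214 to 0.637). Both LGg intervals lie below the 0.840 of chromosomes 1 to 6. On LGh, the gene at 105838 to 154502 had 16.9 FPKM at 38 and 22.2 at 28, a ratio of 0.770 (0.70 to 0.847). That interval, like that of the 345-base LGd model, holds the 0.840 of chromosomes 1 to 6. The gene at 43599 to 98773 had 1.02 and 0.736 FPKM, with an interval that held 1 (0.868 to 2.27) and lay above 0.840. The last LGh model (190227 to 229856) has a transcript of 249 bases over 39.6 kb of genome and was at 0 in both.

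Only 7 of the 216 genes had more than 1 annotated transcript. At the LGf gene starting at 2426303, the transcript of 2223 bases took 86.0% of the locus at 38 and 99.7% at 28, from 38 and 53 fragments. At the LGf gene starting at 1695052, the transcript of 1593 bases took 51.3% at 38 and 73.2% at 28, from only 14 and 28 fragments. These shares are the authors' estimates and carry no interval.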

How the data were processed

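The authors deposited FPKM per gene and per transcript for 1 library at each stage, per the file headers. According to the series' design text the reads were mapped to AnoCar2.0 by TopHat without trimming; the submitters' processing notes name Cufflinks. The sources used here give no version of either. Every gene had the status OK. The transcript files, per the file headers, also hold each transcript's fraction of its locus, used for shares only, and a coverage signal, not used in any comparison.

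Fragments were recovered as FPKM times effective length: among loci of 1 transcript with under 100 fragments, 92.6% (of 5065) came out whole within 0.02 fragments at 38 somite pairs, and 93.1% (of 4566) at 28. Totals assume that FPKM were scaled to all mapped fragments. A gene's length is that of its longest transcript, and its span runs from its start to its end. Most lengths (88.9% of members) were divisible by 3, so they are mostly coding lengths. Differences are log2(FPKM + 1) at 38 minus 28, which understates low genes. Classes were cut at quantiles of chromosomes 1 to 6, and matching by class is a description, not a test. Recovered fragments were rounded to whole numbers for intervals. GC content was not analysed here.

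Members and lists were chosen with earlier results of these data known. Genes named are the 5 most abundant, the most abundant in each group of 10 or more genes, the 6 largest folds each way among the 53 better covered genes, and genes above 0 in 1 library only with 30 or more fragments. Models named for their length, nesting or transcript shares, the 153-base LGc model and the genes of LGd, LGg and LGh were picked after their values were seen. Steps were tested on simulated data. Alternatives covered thresholds, pseudocounts, filters, classes, scaling and single groups. Tools were scipy 1.17.1, pandas 2.3.3, numpy 2.4.6, matplotlib 3.10.9 and Python 3.11.15.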

Additional observations from a re-analysis of the deposited data

How the results depend on the processing

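No paired analysis was possible because the stages had a single library each. The alternative of spliced models, that of values above 0 in both libraries for the stage difference, and those that leave out a group were chosen after seeing the data, except leaving out LGc or LGf for the stage difference. Apart from the cases with a reason given, the cause was not tested. The detected share at 38 and 28 somite pairs was 45.4% and 46.3% for any value above 0, 20.8% and 23.1% at an FPKM of 5, and 47.9% and 49.3% among spliced models of 500 bases or more. At 38 it was 43.5% without LGf and 30.1% without LGc. It stayed below length-matched chromosomes 1 to 6 under all 7 alternatives at each stage, by -27.4 to -11.8 percentage points at 38, the smallest gap being without LGf, and by -24.2 to -13.3 at 28. The matched level was 0 at both stages with no filter on low values, 0.26 at 38 without LGf, and -1.29 at 38 and -1.06 at 28 without LGc. The log2 span ratio of -0.29 became 0.012 without LGf. The matched stage difference was between -0.37 (without LGc) and -0.11 (100 fragments in both) in 16 of 17 alternatives, and 0 with no filter, since the many genes at 0 at both stages then count as unchanged. For LGa, LGc and LGf it was below 0 in 13 of 14 alternatives each. The 2-fold counts at 38 were 1 with a pseudocount of 5, 5 with values above 0 in both libraries and 1 with deposited intervals apart. Those at 28 were 15 with a pseudocount of 0.1, and 2, 1 and 3 under those same alternatives. The ratio of summed fragments was 0.92 without the 5 richest genes, 0.76 per mapped fragment, 0.97 without LGa and 0.80 without LGc. Values from fewer than 10 fragments were rarely listed above 0, so short models needed a higher FPKM to be listed.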
